A study of Canis lupus familiaris with 20 samples.

Results

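OSCA-78 is a dog osteosarcoma cell line, and the RNA of its cells was set against the RNA of cells of OS-1 and OSCA-8, which are lines of the same disease. The comparison used 6 of the 20 libraries of the series, namely OSCA-78 A and B, OS-1 A and B and OSCA-8 A and B. They were chosen by line and fraction from their labels, the OS-2 cells were left out, and all genes were considered. The series was made to find genes in exosomes that could serve to detect residual osteosarcoma in dogs. It held RNA-seq libraries of cells and of exosomes from dog lines. The labels name no treatment, passage, donor or culture, and each group is 1 cell line with 2 libraries. Whether A and B are separate cultures is not said in the labels. A p-value here therefore covers the spread of 2 libraries a line, and part or all of that spread may be technical.

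Osteosarcoma is a malignant bone tumour whose cells make bone matrix, and it is common in large dogs. Cell lines grown from such tumours differ from each other in the genes they have lost, gained or silenced, so a gene without RNA in 1 line can be abundant in another. Exosomes are small vesicles that cells release, and they carry part of the RNA of the cell of origin. The deposited table gives dog gene identifiers without symbols, and a RefSeq gene table held none of them (0 of 24579 identifiers). Genes are therefore described by their levels, 4 of them by identifier. Lists of pathway genes and bone cell markers could not be applied, so the labelled cell type was not checked against its markers.

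Total counts of the 6 cell libraries were between 7728553 and 13301840, the highest being 1.72 times the lowest, and between 14704 and 16273 genes had a count. A gene with 0 counts in 1 cell library could have had up to 0.226 to 0.388 CPM (counts per 1000000 counts of the library's total), the level of 3 counts. Levels below are on this scale, and limits of this kind cover counting error only. Exosome libraries of the same 3 lines (2 of OSCA-78, 4 of OS-1 and 2 of OSCA-8) held 259078 to 478322 counts, where 3 counts correspond to 6.27 to 11.6 CPM.

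The library labelled OS-1 A stood apart from its label. Its gene levels were closest to those of OSCA-8 A, with a Spearman's rho of 0.972 across genes, against 0.888 to OS-1 B. They were also nearer to OSCA-78 A (0.945), OSCA-78 B (0.933) and OSCA-8 B (0.917) than to OS-1 B. OS-1 B itself had a rho of 0.849 to 0.903 with the OSCA-78 and OSCA-8 libraries. The A and B libraries of OSCA-78 had a rho of 0.940, and those of OSCA-8 had 0.907. Genes are not independent replicates, so these values describe the libraries. The chi-square per degree of freedom between counts of the libraries labelled OS-1 A and OSCA-8 A was 34.5, the lowest among pairs of the 8 cell libraries, so they are not copies of 1 library. A set of 5 genes that had no count in OSCA-78 or OSCA-8 exosomes but were present in OS-1 exosomes summed to 0 and 0.232 CPM in OSCA-78 cells and to 0.601 and 0 CPM in OSCA-8 cells. The same 5 genes summed to 3.17 CPM in the library labelled OS-1 A, which was 2.19% of the 145 CPM in OS-1 B. A set of 31 genes without a count in OSCA-8 exosomes summed to 370 and 793 CPM in OSCA-78 cells, to 144 CPM in the library labelled OS-1 A, to 972 CPM in OS-1 B, and to 27.7 and 38.4 CPM in OSCA-8 cells. In both sets the library labelled OS-1 A was nearer to OSCA-8 than to OS-1 B. How this came about was not tested, and results are given with and without it.

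**Figure D1:**
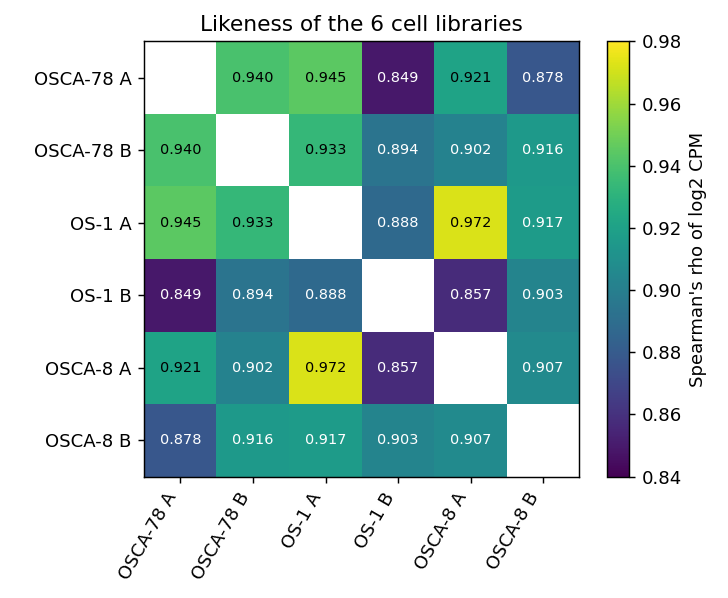
Spearman's rho of log2 CPM across genes for each pair of the 6 cell libraries, with OSCA-78 first on both axes and the colour scale beside the grid. The pair of the library labelled OS-1 A and OSCA-8 A is the most alike at 0.972, OSCA-78 A and B reach 0.940, and OS-1 A and B reach 0.888.

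No gene passed the test as higher in OSCA-78 cells, and 6 genes fell relative to OS-1 and OSCA-8 cells. With edgeR's quasi-likelihood test and the letter as a block, the 6 genes were 0.0433% of the 13864 tested at an adjusted p under 0.05. The smallest of these differences was 9.22-fold in the ratio of mean levels, and 1 of the genes had no count at all in OSCA-78 cells. The smallest adjusted p among genes that were higher was 0.0523. In bulk RNA, fewer cells that carry a transcript and less of it per cell cannot be told apart.

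The count of 0 higher genes depended on the method. At an unadjusted p under 0.05, 864 genes were higher (6.23%) and 965 were lower (6.96%) by edgeR. The same edgeR test scaled by total counts called 10 higher and 10 lower. DESeq2 called 278 higher and 401 lower, and 5 of the 6 genes were among its calls. The calls of limma voom were 10 higher and 6 lower, but only 3 of the 6 genes were among them. With the library labelled OS-1 A left out, edgeR called 11 higher and 8 lower of 14517 genes, and 5 of the 6 genes were among the 8. The 6 genes called with all libraries had log2 fold changes of -12.99 to -3.22 in that fit, and the largest adjusted p among them was 0.0503. Leaving out either OSCA-78 library or either OSCA-8 library left 0 calls by edgeR, with 928 to 1378 genes at an unadjusted p under 0.05.

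ENSCAFG00000015628 had the largest fitted fold change among the called genes whose libraries did not overlap. It had 0 counts in OSCA-78 A and 0 in OSCA-78 B. It stood at 90.8 and 62.0 CPM in OS-1 A and B, and at 109 and 174 CPM in OSCA-8 A and B. OSCA-78 was thus below all 4 other libraries with no overlap, and OS-2 cells, which took no part in the fit, had 182 and 166 CPM. Against 3 counts over both OSCA-78 libraries, a level of 0.120 CPM, the mean of the other lines was 109 CPM, so OSCA-78 was at least 908-fold lower. The fitted log2 fold change was -13.23 (SE 0.74, adjusted p = 0.0479). This fitted value is against 0 counts and depends on the prior count of the fit, so it is no bound. Without the library labelled OS-1 A it was -12.99 (adjusted p = 0.0349).

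ENSCAFG00000015628 was also without a count in OSCA-78 exosomes, which are libraries that the choice of cells did not use. Its exosome levels were 0 and 0 CPM in OSCA-78, 15.4, 42.2, 58.5 and 47.7 CPM in OS-1, and 48.6 and 87.6 CPM in OSCA-8. All exosome libraries of OS-2 and OSCA-32, another dog line, held it too, at 16.6 and 13.2 CPM in OS-2 and at 12.2 and 42.0 CPM in OSCA-32. In edgeR's test of the 8 exosome libraries its log2 fold change was -7.42 (SE 1.12, adjusted p = 0.0131). None of the 4 OSCA-78 libraries used here held a count of it, while all libraries of the other 4 lines did.

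ENSCAFG00000004932 was the other identifier taken from the called genes. It had 0.581 and 1.004 CPM in OSCA-78 cells, which were 7 and 13 counts. OS-1 cells had 27.9 and 21.3 CPM, and OSCA-8 cells had 37.8 and 44.5 CPM. The means were 0.792 ± 0.299 CPM in OSCA-78, 24.6 ± 4.61 CPM in OS-1 and 41.2 ± 4.73 CPM in OSCA-8 (SD, n = 2 each). OSCA-78 was 41.5-fold lower in the ratio of means and lay below all 4 other libraries, and OS-2 cells had 24.6 and 25.9 CPM. The log2 fold change was -5.40 (SE 0.44, adjusted p = 0.0479), and without the library labelled OS-1 A it was -5.24 (adjusted p = 0.0445). In exosomes ENSCAFG00000004932 was below the count filter, with 6.22 and 2.45 CPM in OSCA-78 from 2 and 1 counts. OS-1 exosomes had 11.6, 8.45, 25.1 and 25.0 CPM and OSCA-8 exosomes 7.67 and 10.9 CPM, so OSCA-78 lay below the other lines there, by few counts.

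The other 4 called genes fell in different ways. The most abundant had 55.7 and 51.8 CPM in OSCA-78 cells, 486 and 393 CPM in OS-1 and 516 and 586 CPM in OSCA-8 (log2 fold change -3.28, SE 0.26). The lines did not overlap, OS-2 cells had 434 and 424 CPM, and the ratio of means was 9.22-fold lower in OSCA-78. The next gene had 8.30 and 15.6 CPM in OSCA-78, 69.9 and 151 CPM in OS-1, and 102 and 174 CPM in OSCA-8 (log2 fold change -3.46, SE 0.27). OSCA-78 lay below all 4 other libraries for this gene, at a ratio of means 10.4-fold lower, but OS-2 cells were as low, at 9.89 and 3.70 CPM.

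The third of these 4 genes had 9.38 and 2.70 CPM in OSCA-78 cells, 199 and 128 CPM in OS-1 and 293 and 102 CPM in OSCA-8 (log2 fold change -5.12, SE 0.41). It was 29.9-fold lower in OSCA-78 in the ratio of means, without overlap, and OS-2 cells had 187 and 263 CPM. The last gene had the smallest adjusted p of all genes, 0.0259, and its libraries overlapped. It had 0 and 0.0772 CPM in OSCA-78, 0 and 58.4 CPM in OS-1, and 0.0752 and 518 CPM in OSCA-8. The letter A libraries of all 3 lines had 0 or 1 count of it, and OS-2 cells had none, so the call rested on the B libraries of OS-1 and OSCA-8. In the other 5 called genes both letters showed the difference.

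ENSCAFG00000008487 was among the genes with the smallest adjusted p on the higher side and did not pass the test. It had 156 and 75.3 CPM in OSCA-78 cells, 20.6 and 7.63 CPM in OS-1, and 35.6 and 17.2 CPM in OSCA-8. Both OSCA-78 libraries lay above all 4 others, the ratio of means was 5.71, and OS-2 cells had 73.6 and 70.8 CPM. The log2 fold change was 2.53 (SE 0.22, adjusted p = 0.0523), and the difference was 2.48 between letter A libraries and 2.61 between letter B libraries. Without the library labelled OS-1 A the log2 fold change was 2.60 (adjusted p = 0.0622). In exosomes ENSCAFG00000008487 had 43.5 and 152 CPM in OSCA-78, 65.6, 56.3, 46.0 and 52.2 CPM in OS-1, and 15.3 and 21.9 CPM in OSCA-8. The exosome log2 fold change was 1.46 (adjusted p = 0.444), and OSCA-78 overlapped OS-1 there.

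ENSCAFG00000017040 had 233 and 49.2 CPM in OSCA-78 cells, 25.9 and 8.67 CPM in OS-1, and 29.2 and 6.70 CPM in OSCA-8. Its A library was the higher one in each of the 3 lines, and both OSCA-78 libraries lay above the others. The log2 fold change was 2.79 (SE 0.25, adjusted p = 0.0523), with 3.04 between letter A libraries and 2.54 between letter B libraries. Without the library labelled OS-1 A the log2 fold change was 2.62 (adjusted p = 0.0601). Exosomes of OSCA-78 had 49.7 and 36.8 CPM of ENSCAFG00000017040, within the range of OS-1 exosomes (57.9, 19.7, 52.3 and 6.81 CPM), and OSCA-8 exosomes had 48.6 and 54.7 CPM. Its exosome log2 fold change was -0.04 (adjusted p = 0.996).

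**Figure D2:**
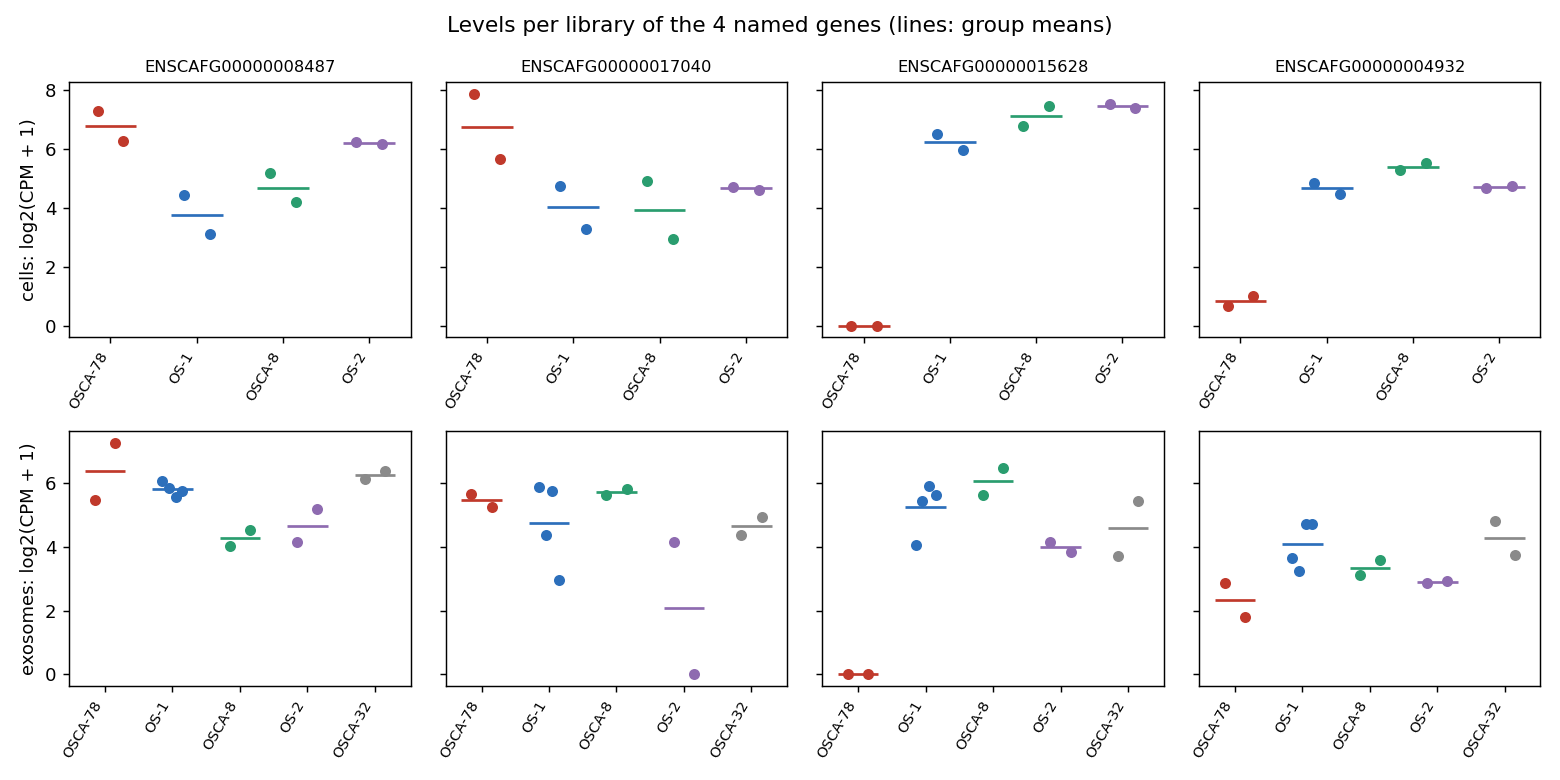
Level of the 4 genes given by identifier, as log2(CPM + 1), in each cell library (upper row) and each exosome library (lower row); points are libraries, horizontal bars are group means, and OSCA-78 stands left. ENSCAFG00000015628 is at 0 in the 4 OSCA-78 libraries used and above 0 in all others, while the cell difference of ENSCAFG00000017040 has no counterpart in exosomes.

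Many more genes lay outside the range of the other lines than passed the test. Both OSCA-78 libraries lay above all 4 others for 1425 genes (10.3%) and below them for 1406 (10.1%), and at over 2-fold these numbers were 575 (4.15%) and 522 (3.77%), all in TMM-scaled CPM. In CPM of total counts, the scale of the levels printed here, the first of these counts were 1746 above (12.6%) and 1091 below (7.87%), so their near balance depends on the scaling. At an adjusted p under 0.1, 19 genes were higher in OSCA-78 (0.137% of those tested) and 30 were lower (0.216%). The 19 higher genes had log2 fold changes of 1.58 to 6.20 (median 2.79), and OSCA-78 lay above the other 4 libraries in all 19. The 30 lower genes had log2 fold changes of -13.23 to -1.74 (median -4.14), and OSCA-78 lay below the others in 24. Setting the 2 of them without a count in OSCA-78 cells to the level of 3 counts left the median at -4.14. The difference exceeded 2-fold within both letters for all 19 higher genes and for 26 of the 30 lower ones. Over all tested genes the median log2 fold change was 0.02, 51.4% were above 0, and the median absolute value was 0.39. At this threshold 132 genes were higher and 89 lower without the library labelled OS-1 A, and 46 of the 49 genes were among them.

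With all 6 libraries, OSCA-78 had more genes far above the other lines than OS-1 or OSCA-8 had. In OSCA-78, 183 genes (1.32%) were over 4-fold higher without overlap of the libraries and 166 (1.2%) were over 4-fold lower. OS-1 set against the other 2 lines gave 28 higher (0.202%) and 187 lower (1.35%), and OSCA-8 gave 143 higher (1.03%) and 87 lower (0.628%). The 3 comparisons share all 6 libraries, and the difference between their counts was not tested. For OS-1 and OSCA-8, counts over 4-fold are not given without the library labelled OS-1 A. The order of the lines by these counts is therefore not known in that setting. The tests of OS-1 and OSCA-8 called 2 genes (0.0144%) and 1 gene (0.00721%), all higher, and 977 genes (7.05%) and 1250 genes (9.02%) had an unadjusted p under 0.05. Without the library labelled OS-1 A, the test called 5 genes for OS-1, all lower, and 34 for OSCA-8, 27 higher and 7 lower, against the 19 of OSCA-78, so the order of the lines by calls turned. In the same setting OSCA-78 had 399 genes over 4-fold higher and 237 over 4-fold lower, from 3 other libraries instead of 4.

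The precision depended on how abundant a gene was. In 5 equal groups of genes by mean level, the median SE of the log2 fold change was 0.85, 0.43, 0.31, 0.26 and 0.25 from the lowest to the highest group. The share of genes at an unadjusted p under 0.05 was 7.86%, 12.1%, 13.5%, 15.7% and 16.7% in the same order. Of the 6 called genes 4 were in the highest group, and none was in the lower 2 groups. The large differences without overlap lay elsewhere. The lowest group held 96 of the 183 genes over 4-fold higher and 62 of the 166 over 4-fold lower, and the highest group held 10 and 14.

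**Figure D3:**
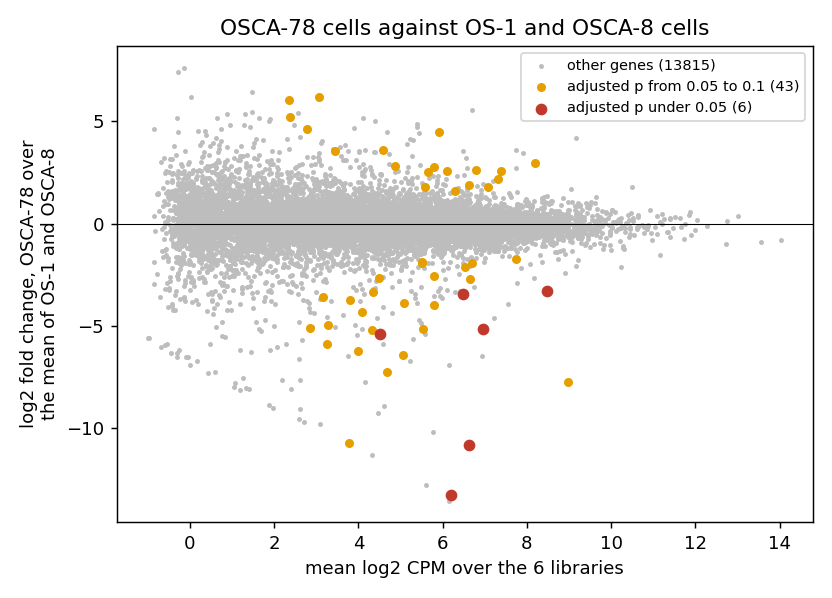
Fitted log2 fold change of OSCA-78 over the mean of OS-1 and OSCA-8 (vertical) against mean log2 CPM over the 6 cell libraries (horizontal), 1 point a gene. The 6 called genes (red) all lie below 0, the 43 genes with an adjusted p from 0.05 to 0.1 (orange) lie on both sides, and the spread of the rest narrows towards abundant genes.

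The letters carried a difference of their own. The A minus B differences correlated between lines across genes at 0.332 between OSCA-78 and OS-1, at 0.349 between OSCA-78 and OSCA-8, and at 0.488 between OS-1 and OSCA-8. Both values with OS-1 include the library labelled OS-1 A, which was most like OSCA-8 A. In the fit, letter B against letter A gave 12 genes higher and 5 lower by edgeR, with 2671 at an unadjusted p under 0.05. What A and B stand for is not given by the labels. The comparison was therefore also made within each letter, with 1 library a line and no test. Across genes, the letter A and letter B differences of OSCA-78 from the mean of the other lines had a Pearson's r of 0.37 and a Spearman's rho of 0.35.

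Differences over 4-fold were shared by the letters only in part. Among letter A libraries 271 genes were over 4-fold higher in OSCA-78, and among letter B libraries 685 were. Both letters shared 109 of them, which was 40.2% of the A genes and 15.9% of the B genes. On the lower side there were 376 genes in A and 407 in B, and 109 were shared (29% and 26.8%). For OSCA-8 against the other lines the shares were 45% and 15.1% on the higher side, and 31.6% and 20.7% on the lower. For OS-1 they were 37.6% and 10.9%, and 54.9% and 4.21%. Sharing in part was thus not particular to OSCA-78. Opposite directions over 4-fold were found for 28 genes in the OSCA-78 comparison. The letter B libraries do not include the library labelled OS-1 A.

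**Figure D4:**
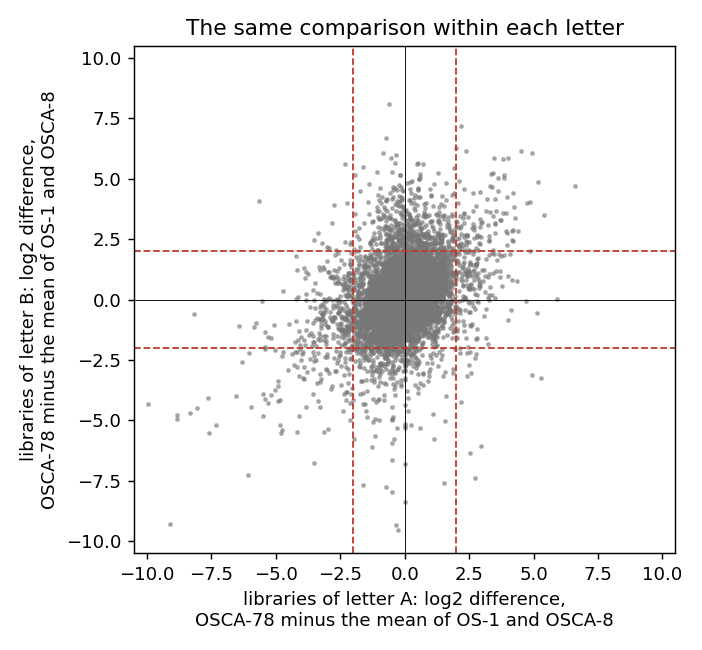
Log2 difference of OSCA-78 minus the mean of OS-1 and OSCA-8 for each gene, within letter A libraries (horizontal) and within letter B libraries (vertical); dashed lines mark 4-fold. The 109 genes over 4-fold higher in both letters lie in the upper right corner, the 109 lower in both lie in the lower left, and many genes stand out in 1 letter alone.

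Exosomes of the same lines gave a second measurement of these genes from other libraries. Of the genes tested in cells, 10721 were also tested in exosomes, and 60.7% had the same sign of fold change in both. Spearman's rho between cell and exosome fold changes was 0.29 across these genes. These values were 59.7% and 0.25 without the library labelled OS-1 A. Of the genes at an unadjusted p under 0.05 in exosomes, whatever their p in cells, 647 had the same sign and 181 had opposite signs.

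Of the 6 genes that fell in cells, 4 were tested in exosomes. All 4 had fitted log2 fold changes below 0 there, from -7.42 to -0.24. ENSCAFG00000015628 was called. The most abundant of the called genes averaged 45.0 ± 19.6 CPM in OSCA-78 exosomes, 103 ± 26.6 CPM in OS-1 (n = 4) and 154 ± 14.9 CPM in OSCA-8 (n = 2; SD throughout), with a log2 fold change of -1.60 (adjusted p = 0.241). The gene that was 29.9-fold lower in cells averaged 18.9 ± 12.9 CPM in OSCA-78 exosomes, 58.9 ± 9.59 CPM in OS-1 and 96.3 ± 8.43 CPM in OSCA-8, with a log2 fold change of -2.12 (adjusted p = 0.219). The fourth gene, which was also low in OS-2 cells, had an exosome log2 fold change of -0.24 (adjusted p = 0.947). It averaged 46.2 ± 21.4 CPM in OSCA-78 exosomes, 59.0 ± 41.5 CPM in OS-1 and 42.1 ± 9.18 CPM in OSCA-8. OSCA-78 thus lay between the other lines for this gene, and its exosome libraries were not apart from theirs. The fitted value of -7.42 is against 0 counts and depends on the prior count of the fit, so it is no bound. In the other 3 genes the exosome difference was smaller than the cell difference.

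Larger sets showed smaller exosome differences still. Of the 19 higher genes at an adjusted p under 0.1 in cells, 17 were tested in exosomes, 12 had the same sign (70.6%) and the median exosome log2 fold change was 0.32. Of the 30 lower genes 23 were tested, 17 had the same sign (73.9%) and the median was -0.47. Of the genes over 4-fold higher in cells without overlap, 121 were tested in exosomes, with 68.6% of the same sign and a median of 0.26. Of those over 4-fold lower 123 were tested, with 60.2% of the same sign and a median of -0.20. Set beside 60.7% over all genes, the share of the 4-fold lower genes was near the background. None of these shares was tested against it, and those of the 17 and 23 genes rest on few genes.

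The test of OSCA-78 exosomes alone called 1 gene higher (0.00722% of 13847) and 5 lower (0.0361%), with 1045 genes (7.55%) at an unadjusted p under 0.05, 562 higher (4.06%) and 483 lower (3.49%). The higher gene had 87.1 and 142 CPM in OSCA-78 exosomes, against 30.9, 28.2, 35.5 and 36.3 CPM in OS-1 and 12.8 and 19.2 CPM in OSCA-8 (log2 fold change 2.19, SE 0.36, adjusted p = 0.0205). In cells it had 93.5 and 103 CPM in OSCA-78, 39.4 and 37.0 CPM in OS-1, and 24.8 and 40.0 CPM in OSCA-8, a log2 fold change of 1.40 (adjusted p = 0.144). OSCA-78 lay above the other lines in both fractions. Among the lower genes, 1 had 103 and 101 CPM in OSCA-78 exosomes, 228 to 307 CPM in OS-1, and 498 and 364 CPM in OSCA-8 (log2 fold change -1.85, adjusted p = 0.0402). Its cell levels of 577 and 771 CPM in OSCA-78 were also below the 1223 and 2779 CPM of OS-1 and the 969.6 and 898 CPM of OSCA-8, with a log2 fold change of -1.11 (adjusted p = 0.315).

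Another lower gene in exosomes showed the opposite sign in cells. It had 6.22 and 14.7 CPM in OSCA-78 exosomes, 65.6, 115, 146 and 154 CPM in OS-1, and 128 and 164 CPM in OSCA-8 (log2 fold change -3.70, SE 0.46, adjusted p = 0.00169). In cells it had 94.3 and 68.3 CPM in OSCA-78, 58.3 and 29.8 CPM in OS-1, and 55.7 and 39.3 CPM in OSCA-8 (log2 fold change 0.77, adjusted p = 0.263). OSCA-78 was thus the lowest line in exosomes and the highest in cells for this gene. The other 3 lower genes had no count in OSCA-78 exosomes. They are ENSCAFG00000015628 and 2 genes without a count in the 6 cell libraries.

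Among genes expected at 10 or more counts in OSCA-78 exosomes, those without any count were few. From the lower of the OS-1 and OSCA-8 exosome levels, 13193 genes should have had at least 10 counts in the 729516 counts of OSCA-78 exosomes, and 8 of them had none. For OS-1 exosomes, with 1533283 counts, 3 of 16671 such genes had none, and for OSCA-8 exosomes, with 756599 counts, 31 of 14342 had none. All 8 genes were without a count in OSCA-78 cells too, but 5 of them had no count in any cell library. The gene with the largest expected count, 109.4, rested on 2 libraries, OS-1 replicate 2 with 648 CPM and OSCA-8 replicate 1 with 2464 CPM, and had 0 in the other exosome libraries.

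The other 7 genes had expected counts of 41.4, 32.4, 30.9, 24.7, 23.1, 16.4 and 10.6, and 32.4 was that of ENSCAFG00000015628. The gene with 41.4 expected counts had 0 and 0 CPM in OSCA-78 exosomes, 34.7, 28.2, 71.1 and 77.2 CPM in OS-1, and 76.7 and 87.6 CPM in OSCA-8. OSCA-32 exosomes had 80.5 and 81.5 CPM and OS-2 exosomes 10.4 and 8.82 CPM. All 7 had counts in every exosome library of OS-1, OSCA-8 and OSCA-32, and OS-2 had the lowest mean of these 4 lines in all 7.

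**Figure D5:**
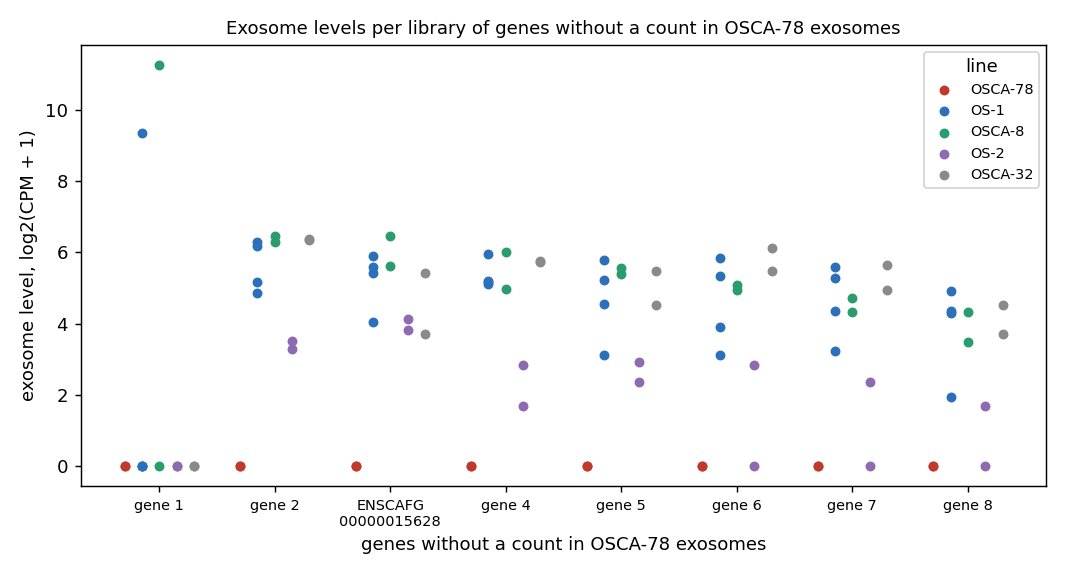
Exosome level, as log2(CPM + 1), of the 8 genes without a count in OSCA-78 exosomes that were expected at 10 or more counts; each point is 1 library, coloured by line. OSCA-78 is at 0 for all 8, gene 1 rests on 1 OS-1 and 1 OSCA-8 library, and the other 7 genes are above 0 in every OS-1, OSCA-8 and OSCA-32 library.

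In cells, 2 genes had no count in OSCA-78 and at least 1 CPM in each of the 4 other libraries, and 1 of them was ENSCAFG00000015628. The other gene was present in OSCA-78 exosomes, with 14 and 19 counts (43.5 and 46.6 CPM). In the other direction 2 genes had at least 1 CPM in both OSCA-78 libraries and no count in the other 4, at a median of 2.06 CPM where detected. Together these 2 genes had 5 and 5 counts in OSCA-78 exosomes, but also 3 to 10 counts in each exosome library of OS-1 and OSCA-8, so they were not particular to OSCA-78 there. OS-1 had 0 and 0 such genes, and OSCA-8 had 2 without a count and 0 detected alone. Leaving out the library labelled OS-1 A gave 2 and 3 for OSCA-78.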

How the data were processed

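The values are read counts per dog gene, whole numbers, in 1 table that the authors deposited for all libraries. The submitters' processing notes list FastQC 0.11.5, Trimmomatic 0.33.0 and kallisto 0.43.0 together with the builds GRCm38.p5 and CanFam3.1, and give no roles. The table's name points to Subread. How strand and reads shared between genes were handled is not stated, so the counts of overlapping or near-identical genes are uncertain. Per the labels' protocols, ExoQuick was used to enrich exosomes, a SeraMir kit for RNA and a SMARTer stranded low-input kit for libraries, with the same text for cells. The table has 1 column whose name, that of a further OSCA-78 exosome library, matched no sample label. It was not used, so statements on OSCA-78 libraries do not cover it.

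Genes were filtered with filterByExpr (minimum count 10), scaled by TMM and tested by the quasi-likelihood F test of edgeR 4.0.16 with robust dispersions (limma 3.58.1 in R 4.3.3). Adjusted p-values are Benjamini-Hochberg values over all genes tested, called under 0.05. The SE given is the absolute log2 fold change divided by the square root of the F statistic. It is not a standard error from the fit. Cells were fitted with line and letter, and the contrast was OSCA-78 minus the mean of OS-1 and OSCA-8. Exosomes were fitted by line alone. Overlap of libraries was judged on TMM-scaled CPM in counts of genes. Within-letter differences of single genes, and of the genes at an adjusted p under 0.1, were on log2(CPM + 1). Over all genes, the correlation, 4-fold counts and plot of the within-letter differences used TMM-scaled log2 CPM with a prior count of 2. The letters were taken as pairs because the A minus B differences correlated at 0.332 to 0.488 in all 3 pairs of lines. Only the pair of OSCA-78 and OSCA-8, at 0.349, does not include the library labelled OS-1 A. DESeq2 1.42.0, limma voom, other scalings and filters, and left-out libraries were tried. A threshold of 0.1, each other line alone, further fits of all 8 cell libraries and DESeq2 without the block were added after the results were seen.

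Identifiers given are the 2 lower ones with the largest fold among called genes without overlap and with a mean log2 CPM of at least 3. On the higher side, where none was called, they are the 2 with the smallest p that meet the other conditions. The comparison, its rule and the sets of genes were chosen with earlier results of these data known. The scripts were tested on simulated data.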

Additional observations from a re-analysis of the deposited data

Results flagged for a closer look

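In 1 of the genes without a count in OSCA-78 exosomes, OS-1 replicate 4 stood apart from the other OS-1 exosome libraries at 61.3 CPM, against 34.7, 33.8 and 35.5 CPM. Chance sets 1 library apart in this way in about 1 in 20 groups. In the gene with opposite signs, the log2 fold change of OSCA-78 over the other lines was -3.70 in exosomes and 0.77 in cells. The difference between these values was not tested.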

How the results depend on the processing

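The 6 calls in OSCA-78 cells rest on 2 libraries a line and on the pairing by letter. With no replicate block 0 genes were called, with 1072 at an unadjusted p under 0.05. All 8 cell libraries with no replicate block gave 6 calls, 2 higher and 4 lower, and 3 of the 6 genes were among them. Total counts as scaling gave 20 calls, of which 10 were higher, and moved the median log2 fold change over the tested genes to 0.108. No filter gave 49, DESeq2 gave 679 (288 with no replicate block), limma voom 16, a threshold of 0.1 gave 49, OS-1 alone 2 and OSCA-8 alone 1. RLE scaling, a filter at 1 CPM and libraries thinned to the smallest total gave the same 6 genes and 0 higher. The fit of 2 groups without a line term gave 9, of which 3 were higher, with 5 of the 6 genes among them. All 8 cell libraries gave 7, of which 2 were higher, with 4 of the 6 genes among them. Leaving out 1 library gave 0 to 19 calls: 19 without the library labelled OS-1 A, 17 without OS-1 B and 0 without any of the others.

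All 4 identifiers kept their direction under the 22 alternatives that keep the threshold of 0.05. ENSCAFG00000015628 and ENSCAFG00000004932 passed in 14 of them each, with adjusted p-values up to 0.187, ENSCAFG00000008487 in 5 and ENSCAFG00000017040 in 7.

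For OS-1 cells, the 2 calls became 0 with no replicate block (474 at an unadjusted p under 0.05), 4 without a filter, 125 by DESeq2, 0 by limma voom (1066), 1 with all 8 cell libraries, and 0 to 5 with 1 library left out (5 without the library labelled OS-1 A). For OSCA-8 cells, the 1 call became 0 with no replicate block (725), 10 without a filter, 264 by DESeq2, 0 by limma voom (1523), 2 with all 8 cell libraries, and 0 to 34 with 1 library left out (34 without the library labelled OS-1 A). For OSCA-78 exosomes, the 6 calls became 77 with the replicate block, 21 without a filter and 0 by limma voom (1056), and 0 to 8 with 1 library left out. They were 0 without either OSCA-78 library, with 768 and 1540 genes at an unadjusted p under 0.05, and 2 without OSCA-8 replicate 2. Exosome depth limits a single library to levels above 6.27 to 11.6 CPM.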

Other observations

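Identifier numbers of the genes without a count in OSCA-78 were looked at after their values were seen. What the numbers stand for is not given by the table, and no genome was used here. Among 84 other identifiers within 50 numbers of ENSCAFG00000015628, 67 were expected at 10 or more counts in OSCA-78 exosomes from the OS-1 exosome level, and 4 of them had no count in any OSCA-78 library used here. Over the whole table, 15 of 15332 genes expected from the OS-1 level had no count in any OSCA-78 library, ENSCAFG00000015628 among them. By the lower of the OS-1 and OSCA-8 levels, 55 identifiers in the window were expected and 2 of them had no count in OSCA-78 exosomes. By that rule, 8 of 13193 genes in the whole table had none, ENSCAFG00000015628 among them. Those of the 8 with 16.4 and 24.7 expected counts lay outside the window, and their numbers differed by 11. Nearness in number was thus not particular to the window of ENSCAFG00000015628. The numbers of the 4 genes found by the OS-1 level differ from that of ENSCAFG00000015628 by -47, -26, 26 and 39. The genes at 26 and 39 had no count in OSCA-8 exosomes either, and had 4 and 2 counts in OSCA-8 cells, 191 and 746 in OS-1 cells and 704 and 1942 in OS-2 cells. The next lower and next higher identifiers in the table had 64 and 51 counts in OSCA-78 exosomes, so the genes without counts do not form an unbroken run of numbers.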
